A study of Mus musculus with 48 samples.

Results

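Adipokines are signalling proteins that fat secretes into the blood. The 10 adipokine genes described here were chosen by name from the 15541 genes listed in the tables of 6 tissues. They were Lep, Adipoq, Retn, Cfd, Rbp4, Nampt, Sfrp5, Apln, Ccn5 (listed under its older symbol Wisp2) and Agt, and each stood on 1 line per Ensembl gene. All 10 were listed in subcutaneous white adipose tissue (WAT) and in gastrocnemius muscle. Only Nampt, Rbp4 and Agt were listed in the liver and in the villi of the duodenum, jejunum and ileum. Values are CPM, the per-million counts of a library. A table lists the genes that reached 1 CPM in no fewer libraries than its smaller group holds, so a gene that is not listed may still be expressed at a low level.

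The question was how mRNA levels differed early after Roux-en-Y gastric bypass (RYGB), in which food is led from a small stomach pouch straight into the jejunum. All mice were male C57Bl6 mice made obese on a high fat diet. The RYGB group and the sham group, which had surgery without the bypass, both received a liquid elemental diet for 9 days after surgery and were killed after fasting at 10 in the morning. The labels also name a return to the high fat diet after these 9 days. No genotype or age was given, and the labels do not say whether sham mice were matched for weight or whether tissues came from the same mice. WAT, liver and muscle had 4 RYGB and 4 sham libraries each, duodenum and jejunum had 3 and 4, and ileum had 5 and 5. The 48 libraries carry replicate numbers, and p-values measure only the spread between these libraries.

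Leptin, encoded by Lep, reports the size and recent feeding state of fat stores to the brain and acts through the receptor Lepr. Adiponectin, encoded by Adipoq, is made almost only by fat cells, is assembled into large multimers in the endoplasmic reticulum, and acts through Adipor1, Adipor2 and Cdh13. The other proteins include local regulators of Wnt signalling (Sfrp5, Ccn5), vascular peptides or their precursors (Apln, Agt), a complement protease (Cfd), a retinol carrier (Rbp4), an enzyme of NAD synthesis that is also released from cells (Nampt) and resistin (Retn).

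Sfrp5, Ccn5, Apln and Lep had lower expression in the WAT of the RYGB group. The promoters of 3 of these 4 genes are shown, since the genes moved in the same direction, and the sequence directly before a gene start is where factors such as C/EBP alpha and the TATA-binding protein are known to bind in Lep. RefSeq promoter sequences (GRCm38.p6) matched 9 of the 10 genes. Ccn5 was the remaining gene. Each line gives the 250 bases before the annotated start, read 5′ to 3′ on the strand of the gene. Lep lies on the plus strand (chr6:29059971-29060220), Sfrp5 on the minus strand (chr19:42202253-42202502) and Apln on the minus strand (chrX:48034854-48035103). Capitals mark letters that matched a searched motif on either strand.

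Lep: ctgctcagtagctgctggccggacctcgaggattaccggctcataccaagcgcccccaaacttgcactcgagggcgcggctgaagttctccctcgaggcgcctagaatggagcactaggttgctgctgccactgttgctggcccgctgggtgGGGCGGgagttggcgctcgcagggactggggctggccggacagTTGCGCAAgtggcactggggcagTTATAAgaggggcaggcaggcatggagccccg
Sfrp5: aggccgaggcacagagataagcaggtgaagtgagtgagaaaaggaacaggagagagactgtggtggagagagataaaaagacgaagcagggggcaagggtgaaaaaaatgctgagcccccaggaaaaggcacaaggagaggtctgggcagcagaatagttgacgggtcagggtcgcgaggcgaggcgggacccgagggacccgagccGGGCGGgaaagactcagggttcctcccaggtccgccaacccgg
Apln: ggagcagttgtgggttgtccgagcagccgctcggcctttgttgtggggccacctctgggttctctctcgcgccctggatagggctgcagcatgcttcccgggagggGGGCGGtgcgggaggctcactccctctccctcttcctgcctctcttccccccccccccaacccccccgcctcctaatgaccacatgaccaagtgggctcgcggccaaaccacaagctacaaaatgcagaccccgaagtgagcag

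The motif TTGCNNAA was searched for C/EBP, and the direct repeat bound by PPAR with RXR was searched as well. The core of the hypoxia response element was searched as ACGTG. The E-box was searched as CACGTG, which overlaps the hypoxia core. The GC box was searched as GGGCGG. The CCAAT box and the letters TATAA of the TATA box completed the set, and all were searched on both strands. The Lep sequence held TTGCGCAA, which reads the same on both strands, from 55 bases before the start, and TTATAA, which matched TATAA on both strands, from 32 bases before it. A GC box lay 98 bases before the start of Lep, 43 before that of Sfrp5 and 144 before that of Apln. No other searched motif was found in the 3 sequences. Of 32851 promoter windows of this length, 9.56% held the C/EBP letters, 22.8% TATAA, 32.7% the GC box, 33.8% CCAAT, 16.6% ACGTG, 6.02% CACGTG and 0.338% the PPAR and RXR repeat. The Adipoq window held CCAAT or its complement at 3 positions and none of the others. These matches describe letters only.

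The tissue labels were checked against defining markers. Plin1 (perilipin, on lipid droplets) was between 431.6 and 1383.6 CPM in the 8 WAT libraries, Alb (albumin) was between 63139.2 and 98976.9 CPM in the liver, Acta1 (muscle actin) was between 27015.5 and 34335.8 CPM in muscle, and Vil1 (villin of the brush border) was at least 2011.1 CPM in the 24 villus libraries. Fabp6, a bile acid binding protein of the distal ileum, was at most 50.5 CPM in the ileum and listed at 0 in 2 sham libraries. Its median there was 41.5 CPM in the RYGB group and 2.5 CPM in the sham group, and the groups overlapped. Sequencing depth is unknown. Lymphocyte markers differed between the WAT groups. All 12 B cell markers and all 14 T cell markers were higher in the RYGB group, with summed levels of 1313.0 to 3534.4 CPM against 21.6 to 34.6 CPM for B cells and 647.9 to 2642.3 CPM against 23.6 to 43.6 CPM for T cells. All 18 adipocyte markers were listed, and their summed level was 18735.9 to 43508.3 CPM in the RYGB group and 37246.9 to 49829.3 CPM in the sham group. In bulk tissue, fewer cells of a type and less RNA per cell cannot be told apart. The part of these differences in the results below was not tested.

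In WAT, 4 of the 10 adipokine genes were DEGs and all 4 were lower in the RYGB group, while none was higher. Genes counted as DEGs when limma on log2(CPM + 1) gave an adjusted p-value below 0.05 (Benjamini-Hochberg, over all genes tested in that tissue) and a fold change of 1.5 or more. As a background, 24.1% of the 13379 genes tested in WAT were DEGs, 14.9% higher and 9.23% lower. The median log2 fold change was -0.79 over the 10 genes and 0.11 over all genes tested. The 10 genes were chosen with earlier results of these data known, so the contrast with all genes is descriptive only. For Sfrp5, Ccn5, Apln and Adipoq every RYGB library lay below every sham library, which held for 15% of all genes tested.

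**Figure D1:**
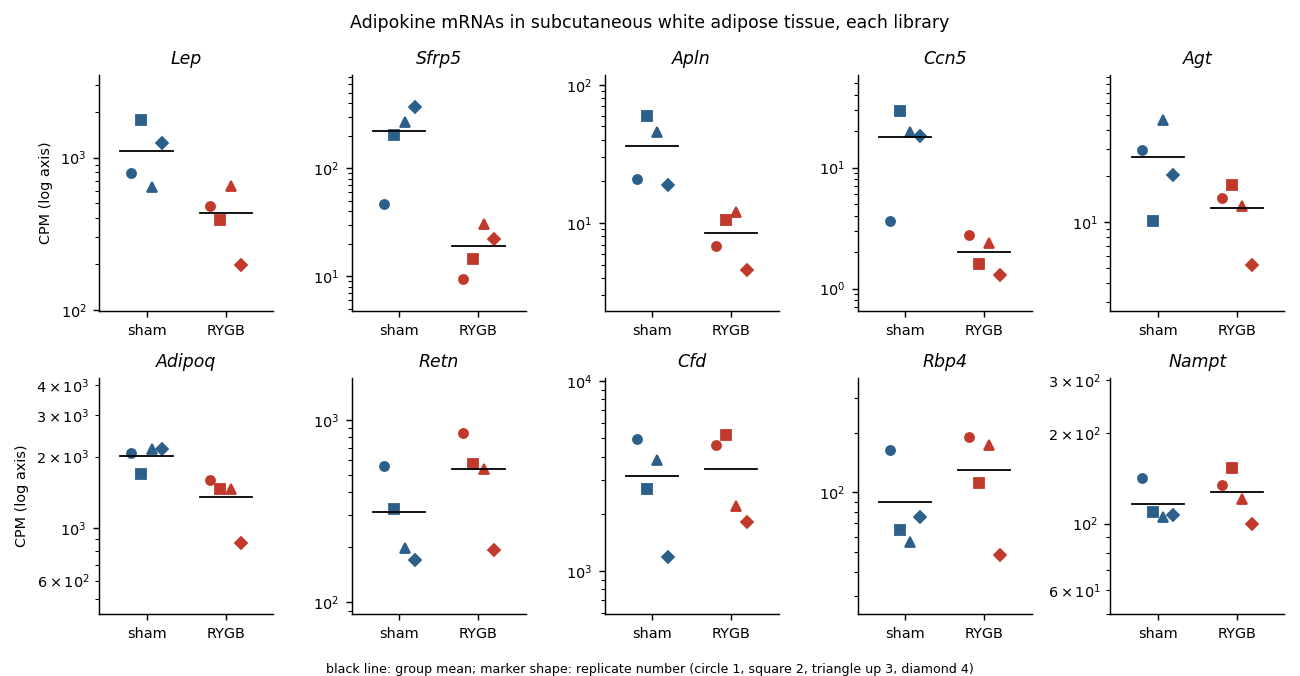
CPM of the 10 adipokine genes in each of the 8 WAT libraries, on log axes, with sham in blue and RYGB in red, black lines for group means and 1 marker shape per replicate number. For Sfrp5, Apln, Ccn5 and Adipoq the groups do not overlap, and Lep overlaps by 1 library pair. RYGB replicate 4 (diamond) is the lowest RYGB library for 9 of the 10 genes.

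Leptin mRNA fell in the RYGB group. Lep (ENSMUSG00000059201, chr6:29060220-29073877, plus strand) was at 482.4, 389.5, 651 and 195.8 CPM in RYGB replicates 1 to 4 and at 789.1, 1754.4, 644.0 and 1239.7 CPM in sham replicates 1 to 4. The groups overlapped only where RYGB replicate 3 stood just above sham replicate 3. The means were 429.7 ± 189.8 and 1106.8 ± 500.7 CPM (SD, n = 4 each). The log2 fold change was -1.38 ± 0.42 (SE, adjusted p = 0.0309 in limma), so leptin mRNA was 2.60-fold lower on the log2(CPM + 1) scale. With the sequencing lane as a covariate Lep (-1.70), Sfrp5 (-2.77), Apln (-1.66) and Ccn5 (-2.35) were all DEGs, as were 4049 of all 13379 genes tested. Lane 1 held only RYGB replicate 1 of WAT and lane 4 only sham replicate 3. These libraries therefore added nothing to the group difference in that fit. The call of Lep was lost without RYGB replicate 2 (adjusted p = 0.0605), sham replicate 2 (0.0784) or sham replicate 4 (0.0760), and the exact permutation test gave p = 0.0571, two-sided, where 0.0286 is the smallest p that 4 against 4 libraries allow.

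The 2 modulators of Wnt signalling showed the largest differences. Sfrp5 (ENSMUSG00000018822, chr19:42197971-42202252, minus strand), a secreted decoy that binds Wnt5a, was at 9.5, 14.4, 30.2 and 22.3 CPM in the RYGB group and at 46.6, 201.0, 268.6 and 367.8 CPM in the sham group. Even sham replicate 1, far below the other sham libraries, lay above every RYGB library. Its log2 fold change was -3.25 ± 0.61 (SE, n = 4 each, adjusted p = 0.00597 in limma), or 9.5-fold lower. It ranged from -3.88 without sham replicate 1 to -2.89 without sham replicate 4, and Sfrp5 remained a DEG without each library in turn.

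Ccn5 (ENSMUSG00000027656, chr2:163820861-163833146, plus strand), a secreted matrix-associated protein of the Wnt pathway, was at 2.8, 1.6, 2.4 and 1.3 CPM in the RYGB group and at 3.6, 29.3, 19.8 and 18.2 CPM in the sham group. The groups did not overlap, but sham replicate 1 was much closer to the RYGB libraries than to the other sham libraries. This was a log2 fold change of -2.37 ± 0.52 (SE, n = 4 each, adjusted p = 0.0104 in limma). At these levels the RYGB values lie near the 1 CPM added before taking logs, so that the fold is understated. Keratinocyte markers also varied between the sham libraries, and their summed level was 17.2 to 26.9 CPM in the RYGB group and 167.9, 84.7, 225.4 and 11.9 CPM in sham replicates 1 to 4. Their part in the Sfrp5 and Ccn5 results was not tested.

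Among the vascular peptides, apelin mRNA fell. Apln (ENSMUSG00000037010, chrX:48025146-48034853, minus strand), whose peptide acts on vessels, was at 6.8, 10.5, 12 and 4.6 CPM in the RYGB group and at 20.9, 59.4, 45.6 and 18.9 CPM in the sham group. The groups did not overlap. Expression differed by a log2 fold change of -1.89 ± 0.40 (SE, n = 4 each, adjusted p = 0.00972 in limma), or 3.70-fold lower.

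Angiotensinogen did not pass the test. Agt (ENSMUSG00000031980, chr8:124556534-124569706, minus strand), the precursor of the angiotensins, was at 14.4, 17.5, 12.7 and 5.2 CPM in the RYGB group and at 29.9, 10.2, 46.4 and 20.3 CPM in the sham group. Sham replicate 2 lay among the RYGB libraries and the other sham libraries lay above them. On the log2 scale the difference was -0.96 ± 0.47 (adjusted p = 0.128 in limma). Without sham replicate 2 it was -1.34 (adjusted p = 0.0486).

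Adiponectin did not reach the threshold either, although its groups were separate. Adipoq (ENSMUSG00000022878, chr16:23146536-23158028, plus strand) was at 1592.1, 1466.4, 1464.5 and 863.8 CPM in the RYGB group and at 2075.2, 1692.4, 2146.0 and 2153.1 CPM in the sham group. Every RYGB library lay below every sham library. The log2 fold change was -0.61 ± 0.24 (adjusted p = 0.0696 in limma, unadjusted p = 0.0302), the exact permutation p was 0.0286, and without a trend in limma the adjusted p was 0.0404. Unadjusted p-values under 0.05 were found for 5 of the 10 genes and for 50% of all genes tested.

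Resistin, adipsin, retinol binding protein and Nampt did not pass the test. Retn (ENSMUSG00000012705, chr8:3655770-3660110, plus strand) was at 850.6, 573.5, 535.9 and 194.4 CPM in the RYGB group and at 555.2, 323.3, 199.2 and 171.5 CPM in the sham group. Its log2 fold change was 0.76 ± 0.49 (adjusted p = 0.239 in limma). The groups overlapped through RYGB replicate 4 and sham replicate 1, and without RYGB replicate 4 the difference was 1.19 (adjusted p = 0.0424).

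Cfd (ENSMUSG00000061780, chr10:79890853-79892655, plus strand), or adipsin, cleaves complement factor B. It was at 4586.2, 5208.6, 2202.4 and 1808.5 CPM in the RYGB group and at 4924.2, 2704.3, 3838.5 and 1179.4 CPM in the sham group, and the spread within each group exceeded the difference (log2 fold change 0.16 ± 0.53, adjusted p = 0.818 in limma). Rbp4 (ENSMUSG00000024990, chr19:38116629-38125281, minus strand) was at 189.3, 111.5, 172.6 and 48.6 CPM in the RYGB group and at 163.3, 64.5, 56.6 and 74.9 CPM in the sham group. Its groups overlapped through RYGB replicate 4 and sham replicate 1 (0.49 ± 0.46, adjusted p = 0.411 in limma). When 1 library was left out the difference was 0.26 to 0.90, and Rbp4 was never a DEG.

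Nampt (ENSMUSG00000020572, chr12:32819545-32853349, plus strand) was at 134.0, 152.7, 121.1 and 99.8 CPM in the RYGB group and at 142.0, 109.3, 105.2 and 106.8 CPM in the sham group. Only RYGB replicate 2 lay above every sham library, and the groups overlapped (log2 fold change 0.13 ± 0.15, adjusted p = 0.530 in limma). No annotated gene shares exon bases with any of the 10 genes in GENCODE M21.

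RYGB replicate 4 stood apart across the gene set. It was the lowest RYGB library for 9 of the 10 genes, all but Sfrp5. Its summed adipocyte markers were 18735.9 CPM, against 33329.3 CPM in the next RYGB library, and its summed T cell markers were 2642.3 CPM, against 967.9 CPM in the next. Without this library 5 of the 10 genes were DEGs, against 2460 of all 13298 genes tested. They were Sfrp5 (-3.36), Ccn5 (-2.25), Apln (-1.66), Lep (-1.05) and, in the other direction, Retn (log2 fold change 1.19). Each library was then scaled to 6 adipocyte markers instead of total counts. The median of all genes moved to 0.71 and 98.6% of the DEGs were higher. In that fit 6912 of the 13379 genes tested were higher DEGs and 96 were lower DEGs. On that scale Sfrp5 (-2.61), Ccn5 (-1.87) and Apln (-1.29) were still lower DEGs. Lep was no longer a DEG (-0.73, adjusted p = 0.0960 in limma) and Adipoq was at 0.03. Retn (1.40), Rbp4 (1.13) and Nampt (0.77) were higher DEGs, of which Nampt lay close to the median of all genes.

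Levels of different genes were compared per kilobase of annotated exon. In the sham WAT libraries the order of mean levels was Cfd (3429 CPM per kb), Adipoq (1460), Lep (330.0), Retn (198), Sfrp5 (116), Rbp4 (66.9), Nampt (22.9), Agt (14.1), Apln (11.5) and Ccn5 (9.21). Only Adipoq against Lep and Rbp4 against Nampt were neighbours whose libraries did not overlap. In the RYGB group Retn (341 CPM per kb) stood above Lep (128), with overlapping libraries, and Sfrp5 (10.1) fell below Nampt (25.1), without overlap. The 10 genes together made up 0.324% to 0.795% of the counts in the RYGB libraries and 0.535% to 0.875% in the sham libraries.

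The genes most alike to a member were found by Pearson correlation of log2(CPM + 1) over the 8 WAT libraries, which share the split into groups, and again on deviations from group means. For Lep these were Tgfb3, Lpgat1 and Mpdz (r between 0.987 and 0.988), and Lpgat1 (0.991) and Mpdz (0.986) also led on deviations. For Apln they were Bcl6b (0.987), Ephb1 and Abcc9, and Bcl6b (0.981) again led on deviations. For Sfrp5 they were Prelp (0.994), Lasp1 and Bmp3, with Prelp (0.975) first on deviations, and for Ccn5 they were Cngb1 (0.986), S100a10 and Itgb1, with Gata6 (0.956) first on deviations. Retn was most alike to Ppp1r1a (0.994), Ndufs6 (0.994) and Dnmt3l (0.992). For Adipoq the first was Plcd3 (0.993), for Rbp4 Orm1 (0.985), for Nampt Apip (0.978), for Agt Exoc3l2 (0.936) and for Cfd Med21 (0.917). These values rank genes and carry no test.

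Of 25 receptors and partners of the adipokines, 20 were tested in WAT, and 2 rose and 4 fell. Their median log2 fold change was -0.11, against 0.11 over all genes. Over all genes tested in WAT, 14.9% were higher DEGs and 9.23% were lower DEGs. The mRNA of the leptin receptor rose while that of leptin fell. Lepr was at 27.9, 27.8, 48.1 and 93.3 CPM in the RYGB group and at 5.4, 4.9, 9.4 and 7.0 CPM in the sham group, with no overlap (log2 fold change 2.57 ± 0.37 SE, n = 4 each, adjusted p = 0.00225 in limma). It remained a DEG without each library in turn (2.20 to 2.77). Lepr was highest in RYGB replicate 4, which also had the highest summed T cell markers (2642.3 CPM). The part of the lymphocyte markers in the Lepr result was not tested. Leprot, the neighbouring gene of a leptin receptor trafficking protein, chosen after its values were seen, was at -0.30 (adjusted p = 0.0299), under the fold threshold. Stra6, a retinol transporter that binds Rbp4, rose from 0.1 to 1.5 CPM in the sham group to 1.7 to 5.5 CPM in the RYGB group (1.5 ± 0.34, adjusted p = 0.0121), and with 5 CPM added in place of 1 it was no longer a DEG.

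**Figure D2:**
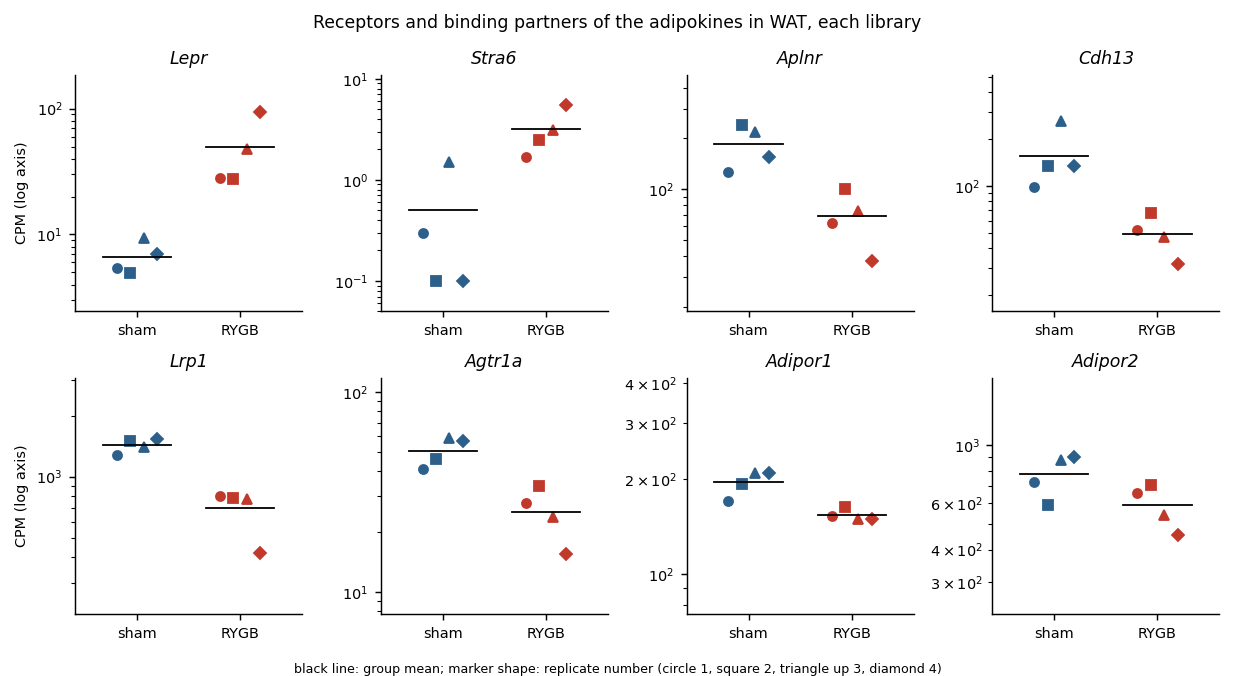
CPM of 8 receptors and binding partners in each of the 8 WAT libraries, on log axes, with sham in blue, RYGB in red and black lines for group means. Lepr and Stra6 are higher in every RYGB library, Aplnr, Cdh13, Lrp1, Agtr1a and Adipor1 are lower in every RYGB library, and Adipor2 overlaps.

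The apelin receptor fell together with apelin. Aplnr was at 62.9, 100.5, 73.8 and 37.5 CPM in the RYGB group and at 126.2, 239.3, 219.1 and 155.2 CPM in the sham group (-1.45 ± 0.31, adjusted p = 0.00906 in limma). Cdh13 (T-cadherin), which holds adiponectin multimers on vessels and muscle, was at 31.5 to 67.4 CPM in the RYGB group and 99.0 to 260.0 CPM in the sham group (-1.60 ± 0.31, adjusted p = 0.00682). Both receptors are expressed by vessel cells, and all 10 endothelial markers fell as well, with a median of -0.97 and summed levels of 1289.0 to 1934.8 CPM against 2361.8 to 3920.6 CPM. The part of that difference in the Apln, Aplnr and Cdh13 results was not tested.

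Agtr1a, a receptor of angiotensin II, fell from 41.1 to 58.8 CPM in the sham group to 15.4 to 33.8 CPM in the RYGB group (-1.02 ± 0.23, adjusted p = 0.0110 in limma). Lrp1, an endocytic receptor, was at 419.2 to 807.2 CPM in the RYGB group and 1276.1 to 1535.2 CPM in the sham group (-1.08 ± 0.23, adjusted p = 0.00972). Adipor1 did not reach the fold threshold (-0.34, adjusted p = 0.0276) and Adipor2 did not pass the test (-0.39, adjusted p = 0.138). With scaling to adipocyte markers Lrp1 (-0.43) and Agtr1a (-0.39) were no longer DEGs, and the values of Adipor1 and Adipor2 turned to 0.31 and 0.25, neither a DEG.

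Of 32 other secreted proteins of fat, 27 were tested in WAT. Over all genes tested there, 9.23% were lower DEGs and 14.9% were higher DEGs. Of the 27 proteins, 13 fell and 1 rose, with a median of -0.66. Those that fell included C1qtnf1, a relative of adiponectin (-1.40 ± 0.19, adjusted p = 0.00158 in limma), Metrnl, or meteorin-like (-1.29, 0.00734), the monocyte chemokine Ccl2 (-1.48, 0.00861), C1qtnf9 (-1.04, 0.0105), which acts on vessels, and the growth factor Bmp4 (-0.66, 0.0109). Without sham replicate 2 Bmp4 fell short of the fold threshold (-0.57). The 1 that rose was Tnf (1.54 ± 0.27, adjusted p = 0.00478), a cytokine of immune cells. Tnf was at 10.7 ± 4.89 CPM in the RYGB group, in which the B and T cell markers were also higher, and at 2.85 ± 0.656 CPM in the sham group. With adipocyte-marker scaling, and also without sham replicate 2, 6 genes of this list were DEGs. Over all genes, 7008 of 13379 were DEGs with that scaling and 2646 of 13383 without sham replicate 2.

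Of 15 transcription factors of adipokine genes, 13 were tested in WAT. Epas1, a hypoxia-inducible factor that is also abundant in vessel cells, was the only DEG among them (-0.88 ± 0.22, adjusted p = 0.0164 in limma). Pparg, the main regulator of fat cell genes, was at -0.47 (adjusted p = 0.127) and Cebpa, which binds the Lep promoter, was at -0.27 (adjusted p = 0.457). Of 11 genes of adiponectin assembly, 10 were tested, and the collagen-type lysyl hydroxylases Plod2 (-0.89, adjusted p = 0.00388) and Plod1 (-0.82, 0.0115) fell.

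The other cell type lists of WAT were counted in the same fit. In it 14.9% of all genes tested were higher DEGs and 9.23% were lower DEGs. Of the 18 adipocyte markers 2 fell (the lipid droplet gene Plin4, -0.92, and the glycerol channel Aqp7, -1.16). The 14 preadipocyte and fibroblast markers had a median of -0.44, and their summed level was 2429.1 to 6770.4 CPM in the RYGB group and 4867.4 to 16395.4 CPM in the sham group. Of these 14, 1 fell (Pdgfrb, -0.70) and 3 rose (Cd55, 1.52, Thy1, 1.71, and Icam1, 0.90). T cells also express Thy1, and both Thy1 (290.1 CPM) and Cd55 (222.8 CPM) were highest in RYGB replicate 4, which had the highest summed T cell markers (2642.3 CPM). The part of these markers in the 2 results was not tested. Of 14 macrophage markers 5 fell (Itgam, -0.79, and Cd68, -1.09, among them), and 4 of 7 keratinocyte markers fell. Among the skeletal muscle markers 1 of 5 rose, among the hepatocyte markers 1 of 3 rose, and of 4 enterocyte and 1 pancreatic acinar markers none was a DEG.

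In the liver none of the 3 listed adipokine genes was a DEG, against 7.08% of the 11807 genes tested. Nampt passed the p-value threshold but not the fold threshold. It was at 83.8, 105.0, 89.0 and 89.3 CPM in the RYGB group and at 60.4, 68.8, 73.2 and 68.5 CPM in the sham group, with no overlap (log2 fold change 0.43 ± 0.11, adjusted p = 0.0347 in limma). Such a complete separation with RYGB higher was found for 13.4% of all genes. An adjusted p-value under 0.05, without the fold threshold, was found for 8.61% of all genes.

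Agt, of which the liver is the main source of the circulating protein, was at 831.5, 674.2, 662.7 and 730.8 CPM in the RYGB group and at 517.1, 339.8, 666.2 and 363.0 CPM in the sham group. Sham replicate 3 reached the RYGB range and the other sham libraries lay below it (0.67 ± 0.20, adjusted p = 0.0648 in limma). Without sham replicate 3 Agt became a higher DEG (0.85, adjusted p = 0.0176). Rbp4 was at 2506.4 to 3182.4 CPM in the RYGB group and 2016.7 to 2996.0 CPM in the sham group (0.21 ± 0.18, adjusted p = 0.464), and its plasma partner Ttr was at -0.42 (adjusted p = 0.271).

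Among the receptors and partners tested in the liver, 3 of 18 rose and none fell. Over all 11807 genes tested there, 684 were higher DEGs and 152 were lower DEGs. Lepr rose here as well, from 1.8, 6.1, 22 and 3.2 CPM in the sham group to 18.0, 46.6, 49.2 and 36.6 CPM in the RYGB group (2.45 ± 0.55, adjusted p = 0.0245 in limma). The groups overlapped through sham replicate 3, and the call was lost in 4 of the 8 fits that left out 1 library (without RYGB replicate 3 and without sham replicates 1, 2 or 4, adjusted p up to 0.0802). C3, the complement component downstream of adipsin, rose (0.98, adjusted p = 0.0194), as did Ace (0.83, 0.0327), the angiotensin converting enzyme, which was at 1.2 to 2.1 CPM in the sham group. C3 lost its call without RYGB replicate 3, sham replicate 2 or sham replicate 4, and Ace lost it in all such fits but those without RYGB replicate 1 or RYGB replicate 4. Without RYGB replicate 3, sham replicate 2 or sham replicate 4 none of the list was a DEG.

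Of the other secreted proteins of fat, 5 of 26 rose in the liver and none fell, or 3 to 7 when 1 library was left out, among them Ccl2 (2.02, adjusted p = 0.00506 in limma), Metrnl (0.95, 0.0148) and Fstl1 (0.98, 0.0164). Of 14 macrophage markers 5 rose in the same libraries, with summed levels of 1020.0 to 2525.1 CPM against 639.7 to 968.2 CPM, and 4 of 12 preadipocyte and fibroblast markers rose and none fell, with a median of 0.78 against 0.13 over all genes. Summed levels of the latter list overlapped, at 2152.0 to 3000.0 CPM in the RYGB group and 1990.1 to 2713.0 CPM in the sham group. The part of both lists in the Ccl2, Metrnl and Fstl1 results was not tested. Of 13 transcription factors Srebf1, the regulator of fatty acid synthesis, fell (-1.63, 0.00771) and the coactivator Ppargc1a rose (0.72, 0.0195). The call of Ppargc1a was lost without sham replicate 1, 2 or 4 (adjusted p up to 0.0567). None of the 10 assembly genes was a DEG.

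**Figure D3:**
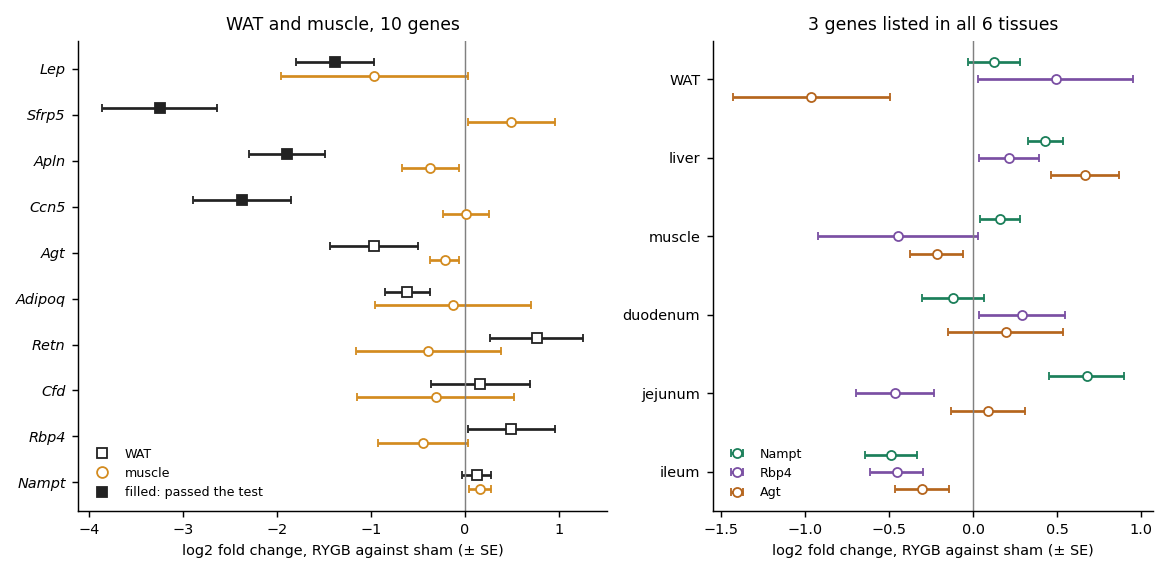
Left, log2 fold changes of RYGB against sham for the 10 genes in WAT (squares) and muscle (circles). Right, log2 fold changes of the 3 genes listed in all 6 tissues. Bars are standard errors from limma, and filled markers are DEGs. Filled markers occur only for Lep, Sfrp5, Apln and Ccn5 in WAT.

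In muscle all 10 genes were listed and none was a DEG, as for all 11966 genes tested (0% DEGs by limma). At an unadjusted p under 0.05, 1746 genes (14.6%) and none of the 10 passed. Without RYGB replicate 4, 210 of 11977 genes were DEGs in muscle, and none of the 10 was among them. The fat-cell markers Plin1 and Cidec also differed between the muscle libraries, and their part in the values was not tested. In sham replicate 3 Plin1 was at 67.1 CPM and Cidec (a lipid droplet protein) at 78.0 CPM, against at most 28.2 CPM for either gene in any other muscle library. The second library was RYGB replicate 1, with 21.8 and 28.2 CPM.

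Adipoq was at 41.1, 8.1, 18.4 and 11.7 CPM in the RYGB muscle libraries and at 5.3, 9.1, 119.0 and 16.8 CPM in the sham libraries. Cfd was at 97.8, 29.7, 13.9 and 21.9 CPM and at 15.4, 17.9, 229.8 and 33.3 CPM. Lep was at 9.9, 1.1, 7.6 and 2.6 CPM and at 2.2, 3.5, 99.8 and 6.1 CPM. These 3 genes were highest in sham replicate 3 and second highest in RYGB replicate 1, and so were Retn (18.1 and 16.4 CPM), Rbp4 (7.2 and 3.3 CPM) and Apln (4.6 and 1.7 CPM). Sfrp5 was also highest in sham replicate 3 (15.7 CPM), while Ccn5 was highest in RYGB replicate 3 (1.9 CPM).

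Agt lay between 4.6 and 8.4 CPM in all 8 muscle libraries. Nampt, which muscle fibres use for NAD synthesis, was at 186.0, 216.1, 172.3 and 167.1 CPM in the RYGB group and at 181.1, 172.4, 134.4 and 177.2 CPM in the sham group (0.16 ± 0.12, adjusted p = 0.593 in limma), and sham replicate 3 was the lowest. The log2 fold change of Lep in muscle was -0.97 ± 1.00 with all libraries and 0.14 without sham replicate 3, that of Adipoq -0.13 and 0.75, and that of Cfd -0.31 and 0.54, none of them a DEG. The summed level of all 17 listed adipocyte markers, several of which muscle fibres also express, ran in another order than Plin1 and Cidec. It was 5874.5, 6013.2, 8628.2 and 5497.8 CPM in RYGB replicates 1 to 4 and 4773.2, 4403.0, 7061.5 and 4716.3 CPM in sham replicates 1 to 4, so that RYGB replicate 3 was highest and sham replicate 3 second. None of the 16 receptors and partners, 22 other secreted proteins, 14 transcription factors or 10 assembly genes tested in muscle was a DEG.

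**Figure D4:**
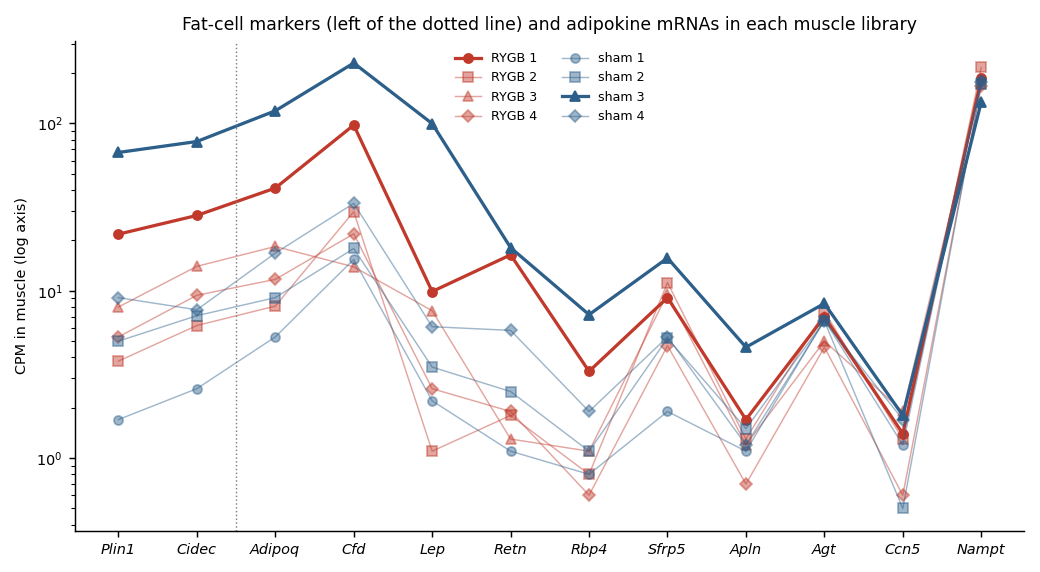
CPM in each of the 8 muscle libraries on a log axis, for the fat-cell markers Plin1 and Cidec and for the 10 adipokine genes, with 1 line per library, RYGB in red and sham in blue. Sham replicate 3 (bold blue) is highest and RYGB replicate 1 (bold red) second for both markers and for Adipoq, Cfd, Lep, Retn, Rbp4 and Apln, while Nampt is lowest in sham replicate 3.

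In the villi only Nampt, Rbp4 and Agt were listed, and none was a DEG in the duodenum (0.00922% of 10850 genes were DEGs), the jejunum (9.75% of 10854) or the ileum (6.05% of 10735). Without sham replicate 4 of the duodenum, 757 of 10854 genes were DEGs there, and none of these genes was among them. In the jejunum Nampt was at 89.0, 146.5 and 138.5 CPM in the RYGB group and at 72.1, 100.4, 70.1 and 65.3 CPM in the sham group. The groups overlapped through RYGB replicate 1 and sham replicate 2 (log2 fold change 0.68 ± 0.22, adjusted p = 0.0907 in limma). Without RYGB replicate 1 it was a higher DEG (0.90, adjusted p = 0.0342).

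In the ileum Nampt was at 35.0 to 61.3 CPM, with a median of 40.3 CPM, in the 5 RYGB libraries. It was at 58.8 to 69.4 CPM in the 5 sham libraries, among them 63.6, 61.7 and 67.3 CPM. Only RYGB replicate 5 reached the sham range (-0.49 ± 0.15, adjusted p = 0.0707 in limma), and without it Nampt was a lower DEG (-0.59, adjusted p = 0.0286). No sequencing lane held ileum libraries of both groups, and the effects of lane and of surgery there cannot be told apart. In the duodenum Nampt was at 99.3, 124.1 and 138.0 CPM in the RYGB group and at 144.1, 122.0, 156.6 and 103.0 CPM in the sham group (-0.12 ± 0.18, adjusted p = 0.762). The estimates thus pointed up in the jejunum and down in the ileum, neither passed the test, and the difference between the segments was not tested because each table was normalized on its own.

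Rbp4 and Agt were near the floor of the tables in the villi. Rbp4 was between 1.3 and 4.7 CPM and Agt between 0.7 and 3.7 CPM in the 24 libraries. In the jejunum the Rbp4 groups did not overlap, with 1.4, 1.4 and 1.7 CPM in the RYGB group and 3.0, 1.8, 1.8 and 3.5 CPM in the sham group (-0.47 ± 0.23, adjusted p = 0.256 in limma), where 12.5% of all genes had every RYGB library below every sham library. In the ileum Rbp4 was at 1.3 to 2.7 CPM and 2.7 to 3.6 CPM (-0.46 ± 0.16, adjusted p = 0.0931).

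**Figure D5:**
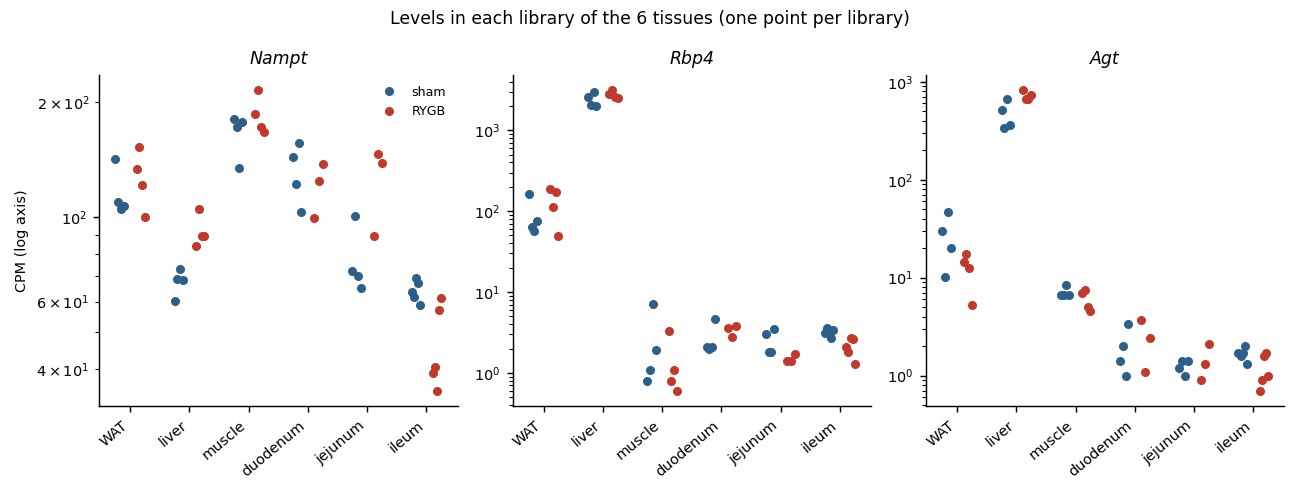
CPM of Nampt, Rbp4 and Agt in each library of the 6 tissues on log axes, with sham in blue and RYGB in red. Rbp4 and Agt are highest in the liver and lowest in muscle and villi, where Rbp4 stays at or below 7.2 CPM, while Nampt stays between 35.0 and 216.1 CPM everywhere.

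Across the tissues, in tables normalized separately, Rbp4 was highest in the liver, with a sham mean of 2410 ± 468 CPM (n = 4), followed by WAT with 89.8 ± 49.6 CPM (n = 4), and these did not overlap. The Rbp4 libraries of muscle and of the 3 villus tissues overlapped each other. Agt followed the order liver (471.5 ± 151.8 CPM), WAT (26.7 ± 15.4 CPM), muscle (7.08 ± 0.885 CPM) and villi (sham means of 1.25 to 1.95 CPM), with no overlap between successive levels in the sham group. Nampt was highest in muscle, with a sham mean of 166.3 ± 21.5 CPM, and its sham libraries overlapped those of the duodenum (131.4 ± 23.7 CPM) and of WAT (115.8 ± 17.5 CPM). The lowest sham means were those of the liver and ileum (67.7 ± 5.34 and 64.2 ± 4.25 CPM), which overlapped.

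Genes of the list of receptors and partners changed in the jejunum and ileum. Of all 10854 genes tested in the jejunum, 501 were higher DEGs and 557 were lower DEGs. Of all 10735 tested in the ileum, 176 were higher DEGs and 474 were lower DEGs. In the jejunum 1 of the 14 receptors and partners rose and 3 fell. Cap1, a proposed resistin receptor, rose (0.79, adjusted p = 0.0237 in limma), and Ace (-1.31, 0.0308), Nmnat3 (-0.99, 0.0327), which makes NAD from the product of Nampt, and Adipor2 (-0.75, 0.0369) fell. In the ileum Ace (-1.29, adjusted p = 0.00343), Lrp1 (-0.69, 0.0110) and Wnt5a, a ligand bound by Sfrp5 (-2.17, 0.0161), fell and none of 14 rose. Wnt5a was near the floor, at 0.1 to 1.2 CPM in the RYGB group and 1.0 to 15.1 CPM in the sham group, and the groups overlapped. Ace, on the brush border of villus cells, was at 1883.6 to 2864.5 CPM in the RYGB group and 4936.1 to 7186.7 CPM in the sham group of the ileum.

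Of the other secreted proteins, Lcn2 (2.11) and Adm (2.27) rose and Nrg4 (-1.28) fell in the jejunum among 13 tested, and none of 12 was a DEG in the ileum. In the jejunum Lcn2 was at 0.1 to 0.2 CPM in the sham group and 2.1 to 5.3 CPM in the RYGB group. Its fold therefore depends on the 1 CPM added before taking logs. Adm was at 1.8 to 3.4 CPM in the sham group and 6.9 to 58.7 CPM in the RYGB group, with a RYGB median of 9.7 CPM. Among 13 transcription factors tested in each segment, Klf15 (-1.84) and Srebf1 (-2.10) fell and Hif1a (1.51) rose in the jejunum, and Nr3c1 (-0.73) fell in the ileum. Klf15 was near the floor, at 0 to 0.7 CPM in the RYGB group and 2.9 to 3.9 CPM in the sham group of the jejunum. The chaperone Hspa5 and the oxidoreductase Ero1l, which fold secreted proteins, rose in both the jejunum (0.89 and 1.21) and the ileum (0.78 and 0.86), among 9 assembly genes. Of these, the Ace and Adipor2 calls in the jejunum were lost in 6 of 7 fits that left out 1 library, those of Hif1a in 5, of Adm, Nmnat3 and Hspa5 in 4 and of Cap1 in 3, and in the ileum that of Hspa5 was lost in 8, that of Ero1l in 4 and that of Nr3c1 in 1 (without RYGB replicate 3) of 10. In the duodenum none of the 13 receptors and partners, 12 secreted proteins, 13 transcription factors or 9 assembly genes was a DEG with all libraries. The sham libraries there varied widely, with Ace at 171.8 to 4549.2 CPM. Without sham replicate 4, 757 of all 10854 genes tested in the duodenum were DEGs.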

How the data were processed

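Per the labels, libraries were made from poly(A) RNA with the Illumina TruSeq Stranded mRNA kit, and the submitters' processing notes name HTSeq and GRCm38. The aligner and the strand setting of the counting are not given in the sources used here. The authors deposited 1 table per tissue with 1 column per library, and the unit was settled from the values, which are CPM rounded to 0.1 that summed to between 925122 and 998777 per library. In the liver 12 lines with a misplaced value were left out. Repeated lines were equal and were counted once. Depth is unknown, since at most 2 of 50 steps of 0.1 CPM were empty in a library and whole reads were not recoverable. No interval or count model was used.

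The RYGB and sham groups of a tissue were compared with limma 3.58.1 (R 4.3.3, trend) on log2(CPM + 1). Genes below a mean of 1 CPM were not tested, and p-values were adjusted by Benjamini-Hochberg. On simulated WAT data this recovered 93 of 98 genes changed by 2 on the log2 scale and 72 of 99 changed by 1, among 13306 genes. Of 13109 unchanged genes 11 were called. The simulation drew each gene independently and held no shift shared by a whole library, so these rates need not hold for the real libraries. The 10 genes and all lists were chosen with earlier results of these data known. By rule, named genes were the 10 genes, at most 6 DEGs by adjusted p of each of 4 lists in WAT, 3 in other tissues and 2 of each marker list. The rule also covered defining markers of the tissues, direct receptors or partners of DEGs, and the genes most alike to each member. Some genes were named outside the rule, among them Leprot and more than 2 of the preadipocyte and fibroblast markers. Values per kb used exon lengths and positions of GENCODE M21 (GRCm38), which may differ from the annotation the authors counted on. Alternatives covered the pseudocount, the CPM minimum, the trend, 2 scalings, the sequencing lane, the replicate block, the call rule, an exact test and leaving out each library. Tables and figures were made with Python 3.11.15, numpy 2.4.6, pandas 2.3.3 and matplotlib 3.10.9.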

Additional observations from a re-analysis of the deposited data

Results flagged for a closer look

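In 58 groups of 4 or 5 libraries of an adipokine gene, 7 had 1 library far from the others on the log2(CPM + 1) scale, where chance flags about 1 in 20 groups, or 2.9 of 58. The figure given is the gap to the nearest library over the range of the group. In WAT these were Adipoq in RYGB replicate 4 (863.8 CPM against 1464.5 CPM in the next, 0.863), Adipoq in sham replicate 2 (1692.4 against 2075.2 CPM, 0.847) and Nampt in sham replicate 1 (142.0 against 109.3 CPM, 0.873). In muscle they were Agt in sham replicate 3 (8.4 against 6.7 CPM, 0.939), Nampt in sham replicate 3 (134.4 against 172.4 CPM, 0.835) and Retn in RYGB replicate 1 (16.4 against 1.9 CPM, 0.885). In the duodenum it was Rbp4 in sham replicate 4 (4.7 against 2.1 CPM, 0.949).

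Some genes had non-overlapping groups in opposite directions in 2 tissues. These differences were not tested, because the tables were normalized separately. Ccl2 was lower in WAT and higher in the liver, with log2 fold changes that differ by -3.50, and so was Metrnl, with a difference of -2.24. The same directions, without overlap, were found for Fstl1 (-1.54 in WAT and 0.98 in the liver). They were also found for the macrophage markers Itgam (-0.79 and 2.23) and Cd68 (-1.09 and 1.03). Leprot, with -0.30 in WAT and 0.50 in the liver, differed by -0.80 and was a DEG in neither. Ace was higher in the liver and lower in the jejunum and ileum, with differences of 2.14 and 2.12.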

How the results depend on the processing

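In WAT the number of adipokine DEGs was 3 to 6 under every alternative run, and Sfrp5 and Apln were lower DEGs in all of them. Ccn5 was too, except with a minimum mean of 10 CPM, where it was not tested. The number was 3 to 5 when 1 library was left out, 4 with median-ratio scaling and 6 with adipocyte-marker scaling. Of all 13379 genes tested, 3303 were DEGs with median-ratio scaling and 7008 with adipocyte-marker scaling. The replicate block gave 4 DEGs in WAT, with Lep lost (adjusted p = 0.0538) and Retn gained (0.0348), and 1 in the liver, where Agt was gained (adjusted p = 0.0496). The correlation of same-numbered deviations was between -0.28 and 0.39 and exceeded 0.1 for every number in no tissue. This cannot settle whether replicate numbers pair the samples. With the block the DEGs over all genes went from 836 to 1236 in the liver, from 0 to 184 in muscle and from 1 to 268 in the duodenum. They went from 3231 to 3328 in WAT, from 1058 to 960 in the jejunum and from 650 to 580 in the ileum. The block changed no call of an adipokine gene in the other 4 tissues.

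In the liver 1 gene, Nampt, passed without the fold threshold. The count ranged from 0 to 1 in the liver, jejunum and ileum when 1 library was left out, and stayed at 0 in muscle and duodenum. No DEG turned its direction under any alternative. Median-ratio scaling moved the share of higher DEGs in WAT from 61.8% to 50.3% and shifted the median of all genes from 0.11 to 0.00. Lane could not be fitted in the duodenum and ileum. Depth is unknown, and values under about 1 CPM are limited by rounding.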
